A study of Mus musculus with 12 samples.

Results

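A group of 9 genes of acid handling and lactate export was followed through hypoxia and sorting in a murine hepatoblastoma (HB) cell line. They were chosen by name, for their known function and with earlier results of these data in view, and were 9 of the 45706 genes in the deposited table. Slc16a1 (MCT1) and Slc16a3 (MCT4) move lactate, and Bsg (basigin) is their chaperone. Car2, Car9 and Car12 are carbonic anhydrases, and Slc4a2, Slc4a4 and Slc4a7 carry bicarbonate across the plasma membrane. BN1 cells came from a tumor that had been driven by mutant β-catenin (B) and NRF2 (N), were immortalized by targeting Cdkn2a and, per the labels, are Cdkn2a knock-out in all 4 groups. They also carried EGFP under the Tie2 promoter, as a pool of stably transfected clones, so all groups share these alterations and stand for 1 cell line. Unsorted normoxic (UN) cells were kept in 21% oxygen and unsorted hypoxic (UH) cells in 1% oxygen for 2 days. Sorted normoxic (SN) cells were the EGFP-positive fraction collected by sorting after hypoxia and were expanded for about 10 days in normoxia, and sorted hypoxic (SH) cells were SN cells returned to 1% oxygen for 2 days. Each group had 3 libraries. The sample titles call the cells of all 4 groups EGFP+, the unsorted ones too, so the groups follow the sorted or unsorted and the oxygen labels. The libraries were described as independent replicas, but the sources used here do not say whether separate cultures or sorts lay behind them, so p-values measure the spread between these libraries, which may in part be technical.

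As background, hypoxic cells rely on glycolysis and have to dispose of lactate and protons. MCT1 and MCT4 export lactate together with a proton, MCT4 being the form typical of highly glycolytic cells, and both need basigin to reach the cell surface. Carbonic anhydrases interconvert carbon dioxide and bicarbonate, with Car2 acting in the cytosol and Car9 and Car12 on the outer face of the membrane. Slc4a2 (AE2) exchanges chloride for bicarbonate, whereas Slc4a4 (NBCe1) and Slc4a7 (NBCn1) bring bicarbonate in with sodium. Car9 and Slc16a3 are known targets of the hypoxia-inducible factors, which bind the core letters ACGTG or GCGTG.

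The promoters of 4 genes are shown because these genes belong to the same functions but had very different levels in hypoxia. RefSeq windows of 300 bases (250 before and 50 after each annotated start, GRCm38.p6) were given for 7 of the 9 genes, 9 windows in all. ACGTG and GCGTG were searched on both strands (CACGT and CACGC on the other), and overlapping matches such as CACGTG were joined. Either motif was present in 43.8% of 32851 windows of all genes, ACGTG in 19.6% and GCGTG in 32.4%. The bases before the start are printed 5′ to 3′ on the plus strand, with matches in capitals. They are chr11:120948817-120949066 for Slc16a3, chr9:66713436-66713685 for Car12 and chr3:104638414-104638663 for Slc16a1, each 250 bases, and a stretch of 30 bases around the single match, chr4:43506996-43507025, for Car9. The Car9 stretch lies in the first exon (5′ UTR) of a GENCODE transcript that starts earlier, and the end of the Slc16a3 window also belongs to an annotated first exon.
Slc16a3: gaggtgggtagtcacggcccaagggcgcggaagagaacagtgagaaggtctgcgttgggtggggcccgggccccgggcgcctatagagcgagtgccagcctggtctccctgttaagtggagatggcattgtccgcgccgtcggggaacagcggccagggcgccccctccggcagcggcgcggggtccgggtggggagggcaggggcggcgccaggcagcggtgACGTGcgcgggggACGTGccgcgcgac
Car9: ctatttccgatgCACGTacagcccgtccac
Slc16a1: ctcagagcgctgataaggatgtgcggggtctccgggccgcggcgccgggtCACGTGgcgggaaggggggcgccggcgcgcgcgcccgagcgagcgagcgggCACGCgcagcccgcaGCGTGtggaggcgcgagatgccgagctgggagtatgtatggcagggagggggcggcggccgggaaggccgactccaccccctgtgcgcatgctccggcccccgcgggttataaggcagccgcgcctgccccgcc
Car12: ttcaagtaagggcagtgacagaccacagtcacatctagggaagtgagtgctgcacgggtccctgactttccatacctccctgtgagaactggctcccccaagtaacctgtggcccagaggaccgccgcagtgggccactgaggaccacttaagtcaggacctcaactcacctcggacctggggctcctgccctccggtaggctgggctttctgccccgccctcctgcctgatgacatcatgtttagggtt
Slc16a3 held ACGTG at 27 and at 14 bases before the start, and Car9 held CACGT at 18 bases before it. Slc16a1 held 3 such runs before the start, at 200, 149 and 134 bases from it, and another ACGTG in the 50 bases after the start, which are not printed. Car12 held neither motif in this window, which says only that these letters are not in it. Of the windows not printed, the first of Slc4a2 held 2 matches and the first of Slc4a4 held 1, all GCGTG. The other window of each and that of Slc4a7 held neither motif. A match is a description of the sequence and not of binding.

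Values are TPM (transcripts per 1000000), which are corrected for transcript length, so levels of different genes can be set side by side. Every library summed to 1000000, and the depth behind each value is unknown. For tests, limma was fitted once to log2(TPM + 1) of all 12 libraries, over the 18909 genes whose mean TPM was 0.1 or more, a filter that all 9 genes passed. Genes were called where p, adjusted by Benjamini-Hochberg over all genes of a contrast, was under 0.05 and the fold above 2. Counts at an unadjusted p under 0.05 have no share over all genes beside them, so they give no result about the genes counted. The added 1 shrinks the log2 fold change of scarce transcripts, and SE is its standard error. Exact two-sided permutation tests of single genes cannot give a p below 0.1 with 3 libraries against 3. Where groups are said not to overlap, p = 0.1, the smallest value such a permutation test allows.

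A single normoxic library stood apart. Fibroblast or stellate markers (9 genes) summed to 4315 TPM in UN replicate 1 against 1152 and 1014 TPM in UN replicates 2 and 3. Mitochondrially encoded transcripts made up 7.55% of its TPM, against 5.18% and 5.56%, and its median correlation with its own group was 0.978, against 0.984 in each of the others. The same library had the lowest Slc16a1, Car2 and Car12 of the UN group and the highest Slc16a3, Bsg and Car9, so calls on the 9 genes that its removal changed, and called values of theirs that it moved by over 1.5 times, are given with and without it. In SH replicate 3 mitochondrially encoded transcripts made up 4.68% of TPM, against 2.94% and 2.66% in SH replicates 1 and 2, and Bsg, Car12, Slc4a4 and Slc16a1 were lowest there among the SH libraries. The mean share of mitochondrially encoded transcripts was 6.10% in UN, 2.11% in UH, 8.10% in SN and 3.43% in SH. It was thus lower in hypoxia in both kinds of cells, alongside every response to hypoxia given below. Hepatocyte or hepatoblast markers (8 genes) were low for a line labelled as HB, summing to between 5.60 and 13.5 TPM in unsorted and to between 47.8 and 71.4 TPM in sorted libraries. Among them Alb did not exceed 4.23 TPM and Ttr did not exceed 0.474 TPM in any library, and Trf, which encodes transferrin, had the highest mean over all 12 libraries, carried by the sorted cells (37.9 to 61.4 TPM). In the UN libraries Trf was 3.36, 0.921 and 2.24 TPM, and Hnf4a, a hepatocyte transcription factor, was 1.70, 4.86 and 4.98 TPM. Not every marker followed the sum. Hnf4a was 0.429, 0.203 and 0.159 TPM in the SN libraries. Alb was 2.07, 2.16 and 3.30 TPM in UN and 0.636, 0 and 0 TPM in SN. Afp went with Trf, at 1.43, 2.34 and 1.71 TPM in UN and 8.14, 9.65 and 9.80 TPM in SN. Of the 7 tested, limma placed 2 above and 2 below UN in SN cells, beside 3.2% and 7.57% of all genes.

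Genes known to respond to hypoxia did so in both kinds of cells. Of 10 reference genes of the hypoxic response, 9 rose in UH vs UN, where 5.46% of all genes tested were called higher, and 10 rose in SH vs SN, where 7.47% were, and the response differed between sorted and unsorted cells for 0 of them by the limma interaction test, where 2 had an unadjusted p under 0.05. Without UN replicate 1 it differed for 2, Pfkfb3 (1.51, adjusted p = 0.0430, limma) and Adm (−2.27, adjusted p = 0.0144, limma). For example, Ankrd37 was 5.38, 4.70 and 5.59 TPM in the UN libraries and 232, 203 and 183 TPM in the UH libraries. It was 12.1, 6.35 and 13.5 TPM in SN and 369, 379 and 248 TPM in SH. Bnip3, a mitophagy receptor, rose by 4.01 and 3.98 on the log2 scale in unsorted and sorted cells. Pgk1, a glycolytic enzyme and the most abundant of the 10, rose by 2.40 and 2.51. Adm (adrenomedullin) rose by 4.71 and 3.54. It was 22.2, 1.45 and 1.22 TPM in the UN libraries, and without UN replicate 1 the first value was 5.81. The exception in unsorted cells was Pfkfb3, which was 30.4, 56.4 and 56.2 TPM in UN and 61.8, 81.2 and 98.3 TPM in UH.

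Against this common response, the 9 genes behaved very differently from one another. In UH vs UN, Slc16a3, Bsg, Car12 and Slc4a4 were higher, 4 of the 9 against that 5.46% of all genes. Car2 and Slc4a7 were lower, 2 of the 9 where 11.8% of all genes were. In SH vs SN, Bsg, Slc4a4 and Car12 were higher, 3 of the 9 against 7.47% of all genes, and Car2 alone was lower, 1 of the 9 against 5% of all genes. The median log2 fold change of the 9 genes was 0.82 in unsorted and 0.051 in sorted cells, beside −0.19 and 0.028 over all genes. Both medians of the 9 were the value of Car9, which was called in neither response. It did not exceed 1.39 TPM in any library, so these medians do not describe a response of the 9 as a group. The plot of the 9 genes by library shows these levels.

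**Figure D1:**
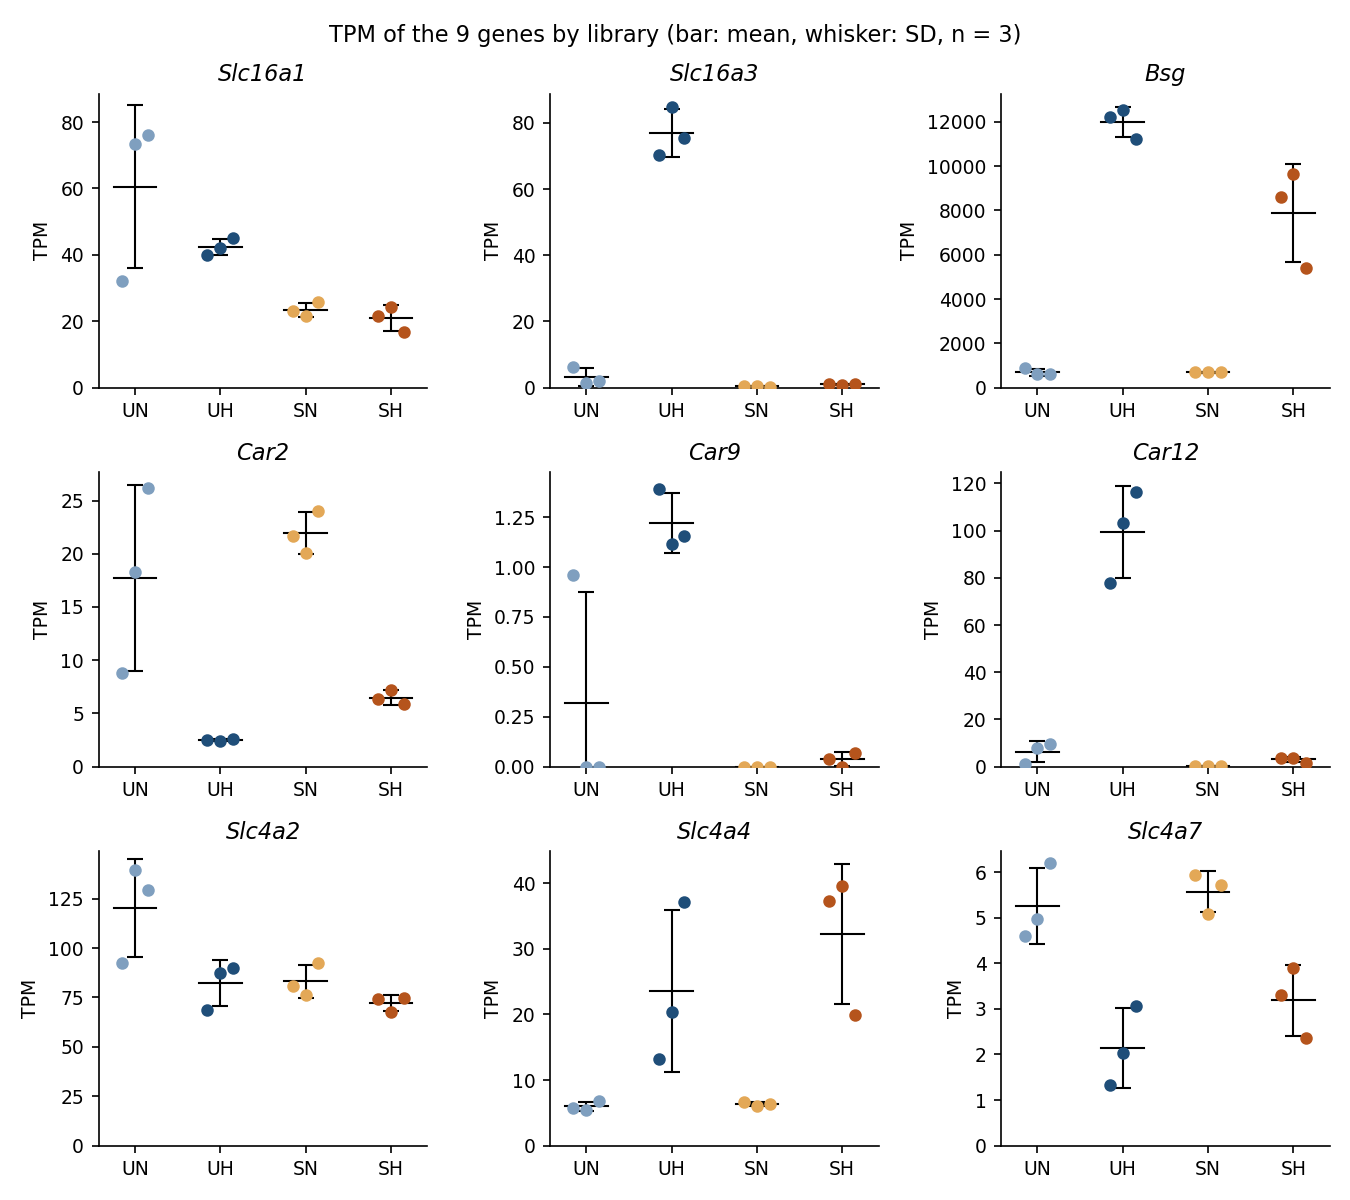
TPM of each gene (vertical axes, linear and from 0) in the 12 libraries of the 4 groups, with 1 point for each library, a bar at the mean and a whisker of 1 SD (n = 3). Slc16a3, Car12 and Car9 were highest in the 3 UH libraries, whereas Bsg was high in both hypoxic groups and Car2 low in both.

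Bsg, the chaperone of the lactate transporters, was the most abundant of the 9 in every group. It was 888, 600 and 632 TPM in the UN libraries and 12232, 12524 and 11226 TPM in the UH libraries. It was 689, 686 and 712 TPM in SN and 8610, 9658 and 5398 TPM in SH. No hypoxic library came near a normoxic one, and SH replicate 3 was the lowest of the hypoxic libraries. The increase was 4.10 on the log2 scale (SE 0.204, adjusted p = 6.22e-08, limma) in unsorted cells and 3.46 (SE 0.204, adjusted p = 4.04e-07, limma) in sorted cells, and 3.71 in the latter without SH replicate 3. In the UH libraries Bsg alone took 1.12% to 1.25% of all TPM and ranked 3 or 4 among all genes, against ranks of 165 to 243 in UN. It ranked 5, 4 and 11 in the SH libraries and 192 to 205 in SN. The response of sorted cells was 0.65 lower on the log2 scale (95% interval −1.28 to −0.015), which did not pass the test (adjusted p = 0.130, limma). It did pass for p, still under the fold threshold, without UN replicate 1 (−0.82, adjusted p = 0.0412, limma) and with median-of-ratios scaling (−0.99, adjusted p = 0.0475, limma). In order of level, UH exceeded SH without overlap, both exceeded the normoxic groups, and UN and SN overlapped (difference −0.00038, 95% interval −0.45 to 0.45).

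Slc16a3, the lactate exporter MCT4, rose with hypoxia in unsorted cells and stayed at about 1 TPM or less in sorted cells. It was 6.27, 1.53 and 1.91 TPM in UN and 70.4, 84.6 and 75.5 TPM in UH. It was 0.471, 0.519 and 0.279 TPM in SN and 0.970, 0.852 and 1.07 TPM in SH. All UH libraries were far above the rest, and the highest SH library was below the lowest UN library. The rise in UH vs UN was 4.36 on the log2 scale (SE 0.311, adjusted p = 8.28e-07, limma), a ratio of means of 23.7. In SH vs SN the groups did not overlap and the ratio of mean TPM was 2.28, but the difference on log2(TPM + 1) was 0.47 (95% interval −0.21 to 1.15) and did not pass the test (adjusted p = 0.260, limma). The adjusted p was 0.0135 without UN replicate 1 and 0.0101 when only the groups compared were fitted, with the same difference of 0.47, under the fold threshold. With a pseudocount of 0.1 the difference was 1.05 (adjusted p = 0.0595, limma). The responses of sorted and unsorted cells differed by −3.89 on the log2 scale (SE 0.440, adjusted p = 0.000182, limma). Slc16a3 was thus lower in sorted cells in both oxygen conditions, with a log2 fold change of −1.41 in normoxia (adjusted p = 0.00452, limma) and of −5.30 in hypoxia (adjusted p = 2.20e-07, limma). Without UN replicate 1 the difference in normoxia was −0.94 (adjusted p = 0.000533, limma), under the fold threshold, and the rise in UH vs UN was 4.84.

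Slc16a1, the transporter MCT1, was called in neither response to hypoxia. It was 32.1, 73.4 and 76.0 TPM in UN and 40.0, 42.0 and 45.0 TPM in UH, groups that overlapped because of UN replicate 1. It was 23.0, 21.6 and 25.7 TPM in SN and 21.7, 24.4 and 16.6 TPM in SH, which overlapped too. The difference was −0.41 (95% interval −0.99 to 0.18, adjusted p = 0.238, limma) in UH vs UN and −0.17 (95% interval −0.75 to 0.41, adjusted p = 0.662, limma) in SH vs SN. Without UN replicate 1 it was −0.81 in UH vs UN (adjusted p = 0.00102, limma), still under the fold threshold. Sorted cells had less Slc16a1 than unsorted cells in normoxia, with a log2 fold change of −1.24 (SE 0.267, adjusted p = 0.00395, limma), or −1.64 without UN replicate 1. In hypoxia the difference was −0.999 (SE 0.267, adjusted p = 0.0106, limma), just short of the fold threshold, and the SH and UH libraries did not overlap. The responses differed by 0.24 (adjusted p = 0.676, limma) and by 0.64 (adjusted p = 0.0305, limma) without UN replicate 1, both under the fold threshold.

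The balance between both transporters can be read within each library, where scaling between libraries cancels. Slc16a3 was 0.195, 0.0209 and 0.0252 of Slc16a1 in the UN libraries and 1.76, 2.02 and 1.68 in the UH libraries. The ratio was 0.0205, 0.0240 and 0.0109 in SN and 0.0447, 0.0350 and 0.0647 in SH. MCT4 mRNA therefore exceeded MCT1 mRNA in every UH library and in no other. Both transporters together came to 63.8 ± 22.0 TPM in UN, 119 ± 8.15 TPM in UH, 23.8 ± 1.93 TPM in SN and 21.9 ± 3.83 TPM in SH (SD, n = 3). Bsg was 13.1 ± 8.71 times their sum in UN, 101 ± 8.96 times in UH, 29.3 ± 1.77 times in SN and 356 ± 44.0 times in SH (SD, n = 3). The SH libraries, in which neither transporter was called higher than in SN, thus had more Bsg for each transporter transcript than any other library. Basigin has other known partners, and mRNA ratios do not give amounts of protein.

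**Figure D2:**
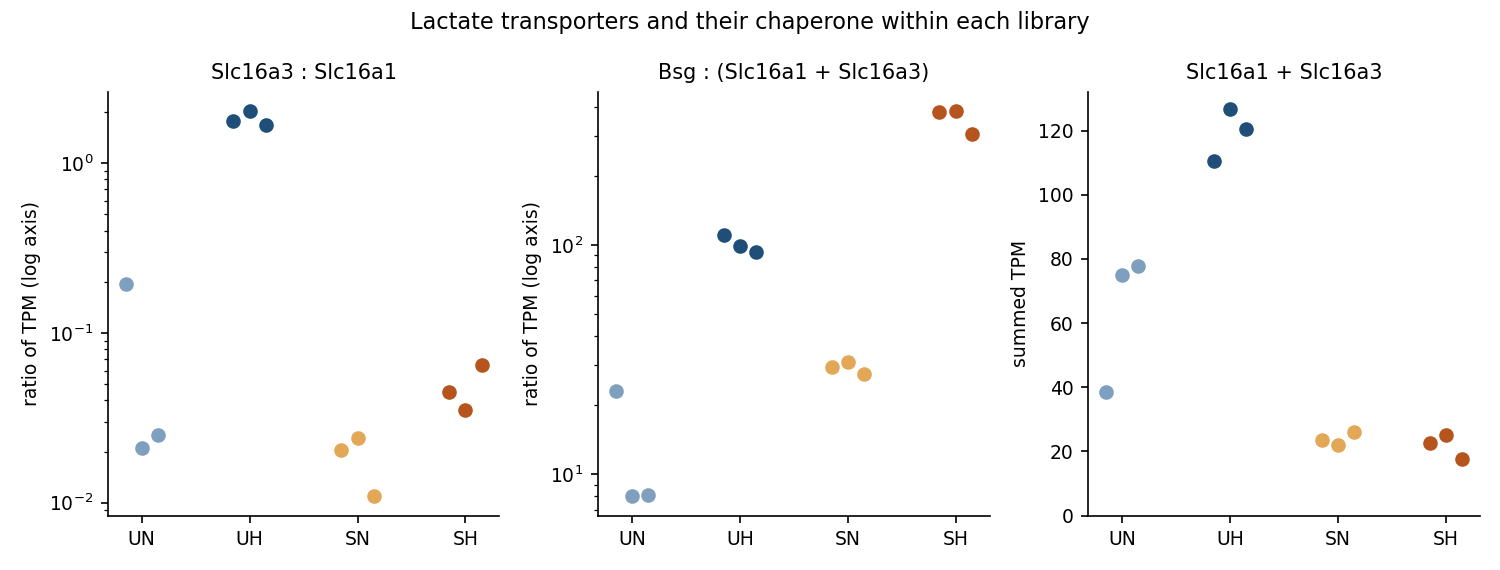
Ratio of Slc16a3 to Slc16a1 TPM (left, log axis), ratio of Bsg to the sum of both transporters (middle, log axis) and that sum in TPM (right, linear axis from 0), with 1 point for each of the 12 libraries. The first ratio was above 1 in the 3 UH libraries, at 1.68 to 2.02, and the second was highest in the 3 SH libraries, at 305 to 383.

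Among the carbonic anhydrases, Car12, a membrane-bound form with its active site outside the cell, rose in both kinds of cells from very different starting levels. It was 1.19, 7.97 and 9.56 TPM in UN and 78.0, 103 and 116 TPM in UH. It was 0.223, 0.315 and 0.344 TPM in SN and 3.79, 3.73 and 1.69 TPM in SH. The hypoxic libraries were above the normoxic ones without overlap in each case. The SH libraries were above UN replicate 1 (1.19 TPM) but below UN replicates 2 and 3. The rise was 4.06 on the log2 scale (SE 0.478, adjusted p = 3.32e-05, limma) in UH vs UN and 1.61 (SE 0.478, adjusted p = 0.0184, limma) in SH vs SN. Sorted cells had less Car12, with log2 fold changes of −2.20 in normoxia (adjusted p = 0.00417, limma) and −4.65 in hypoxia (adjusted p = 1.65e-05, limma). The rise in UH vs UN was 3.34 (adjusted p = 3.73e-06, limma) and the difference in normoxia −2.91 (adjusted p = 1.12e-05, limma) when UN replicate 1 was left out.

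The responses of Car12 differed by −2.46 (SE 0.676, adjusted p = 0.0242, limma), but the call depended on the scale. Ratios of mean TPM were closer, 15.9 in unsorted and 10.4 in sorted cells, and with a pseudocount of 0.1 the difference was −1.46 (adjusted p = 0.250, limma). Without UN replicate 1, in which Car12 was lowest, it was −1.74 (adjusted p = 0.00377, limma). Leaving out UH replicate 2 or 3, SN replicate 2 or 3 or SH replicate 3 gave adjusted p = 0.0545, 0.0510, 0.0549, 0.0550 and 0.0537 by limma, so the call was lost each time. The rise of Car12 in sorted cells itself had adjusted p = 0.0543 without SN replicate 1, 0.0507 without SN replicate 2, 0.0698 without SH replicate 1 and 0.0673 without SH replicate 2.

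Car9, the other membrane-bound form and a widely used marker of hypoxic tumors, was barely present. It was 0.961, 0 and 0 TPM in UN and 1.39, 1.11 and 1.15 TPM in UH. It was listed at 0 in all 3 SN libraries and was 0.0406, 0 and 0.0692 TPM in SH. The UH libraries were above all others, and only UN replicate 1 came near them. The difference in UH vs UN was 0.82 on log2(TPM + 1) (SE 0.210, adjusted p = 0.00680, limma), under the fold threshold, and 1.15 (adjusted p = 3.09e-06, limma) without UN replicate 1, where it passed. It also passed with a pseudocount of 0.1, at 2.58. In SH vs SN the difference was 0.051 (95% interval −0.41 to 0.51, adjusted p = 0.886, limma), and in SH vs UH it was −1.10 (adjusted p = 0.00144, limma). The antisense gene Gm12454 overlaps Car9 on the other strand and reached 2.24 TPM in UH replicate 3. The kit marks strand, but whether the quantification used it is not given in the sources used here, so reads of the pair may not be fully separated.

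Car2, a cytosolic form of high activity, went the opposite way. It was 8.75, 18.3 and 26.1 TPM in UN and 2.46, 2.43 and 2.64 TPM in UH. It was 21.7, 20.1 and 24.0 TPM in SN and 6.38, 7.24 and 5.87 TPM in SH. Every hypoxic library was below every normoxic one, and the SH libraries were above the UH libraries without overlap. Car2 fell by 2.29 on the log2 scale (SE 0.282, adjusted p = 4.57e-05, limma) in unsorted cells and by 1.61 (SE 0.282, adjusted p = 0.000791, limma) in sorted cells, and by 2.70 in the former without UN replicate 1. The responses differed by 0.68 (95% interval −0.19 to 1.55, adjusted p = 0.242, limma) and, without UN replicate 1, by 1.09 (adjusted p = 0.00360, limma). In hypoxia Car2 was higher in sorted cells by 1.09 (SE 0.282, adjusted p = 0.00890, limma), a call that fell under the fold threshold with median-of-ratios scaling (0.92) and quantile normalization (0.99). In normoxia the groups overlapped (difference 0.41, 95% interval −0.21 to 1.03). The ratio of Car12 to Car2 was 0.136 to 0.436 in the UN libraries, 31.7 to 44.0 in UH, 0.0103 to 0.0157 in SN and 0.288 to 0.594 in SH. Car12 mRNA therefore exceeded Car2 mRNA in the UH libraries only, among these 12.

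The bicarbonate carriers of the Slc4 family split as well. Slc4a4, which brings bicarbonate in with sodium, was 5.77, 5.51 and 6.76 TPM in UN and 13.2, 20.3 and 37.2 TPM in UH. It was 6.61, 6.06 and 6.39 TPM in SN and 37.3, 39.5 and 19.97 TPM in SH. Hypoxic and normoxic libraries did not overlap, the hypoxic ones were widely spread, and neither UN and SN nor UH and SH were separated. Slc4a4 rose by 1.69 on the log2 scale (SE 0.321, adjusted p = 0.00107, limma) in unsorted and by 2.12 (SE 0.321, adjusted p = 0.000294, limma) in sorted cells. The responses differed by 0.43 (95% interval −0.57 to 1.42, adjusted p = 0.522, limma).

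Slc4a7, the electroneutral sodium-bicarbonate cotransporter, was 4.60, 4.97 and 6.20 TPM in UN and 1.32, 2.03 and 3.07 TPM in UH. It was 5.93, 5.08 and 5.71 TPM in SN and 3.31, 3.90 and 2.36 TPM in SH. Its hypoxic libraries were below the normoxic ones without overlap, in the opposite direction to Slc4a4. It fell by 1.02 (SE 0.215, adjusted p = 0.00211, limma) in UH vs UN, at the edge of the fold threshold. This call was lost with median-of-ratios scaling (−0.76) and quantile normalization (−0.80) and without UN replicate 3 (−0.92) or UH replicate 1 (−0.82). In SH vs SN the difference was −0.66 (adjusted p = 0.0276, limma), under the threshold. Slc4a7 overlapped between UN and SN and between UH and SH.

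Slc4a2, the chloride-bicarbonate exchanger, was the second most abundant of the 9 in UN, SN and SH. It was 92.3, 139 and 129 TPM in UN and 68.9, 87.5 and 90.1 TPM in UH. It was 80.8, 76.3 and 92.6 TPM in SN and 74.3, 67.5 and 74.5 TPM in SH. Differences were small, −0.53 (adjusted p = 0.0141, limma) in UH vs UN and −0.20 (95% interval −0.54 to 0.14, adjusted p = 0.332, limma) in SH vs SN, although the groups did not overlap in either. With median-of-ratios scaling, which moved the median of all genes in UH vs UN from −0.19 to 0, the first was −0.18. The responses differed by 0.33 (adjusted p = 0.300, limma) and by 0.51 (adjusted p = 0.0457, limma) without UN replicate 1, both under the fold threshold. Fastk overlaps Slc4a2 on the other strand at 78.5 to 152 TPM, so the level of Slc4a2 is uncertain in the same way as that of Car9. The ratio of Slc4a4 to Slc4a2 was 0.0515 ± 0.0115 in UN, 0.279 ± 0.118 in UH, 0.0767 ± 0.00681 in SN and 0.452 ± 0.165 in SH (SD, n = 3), and the hypoxic libraries did not overlap the normoxic ones.

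**Figure D3:**
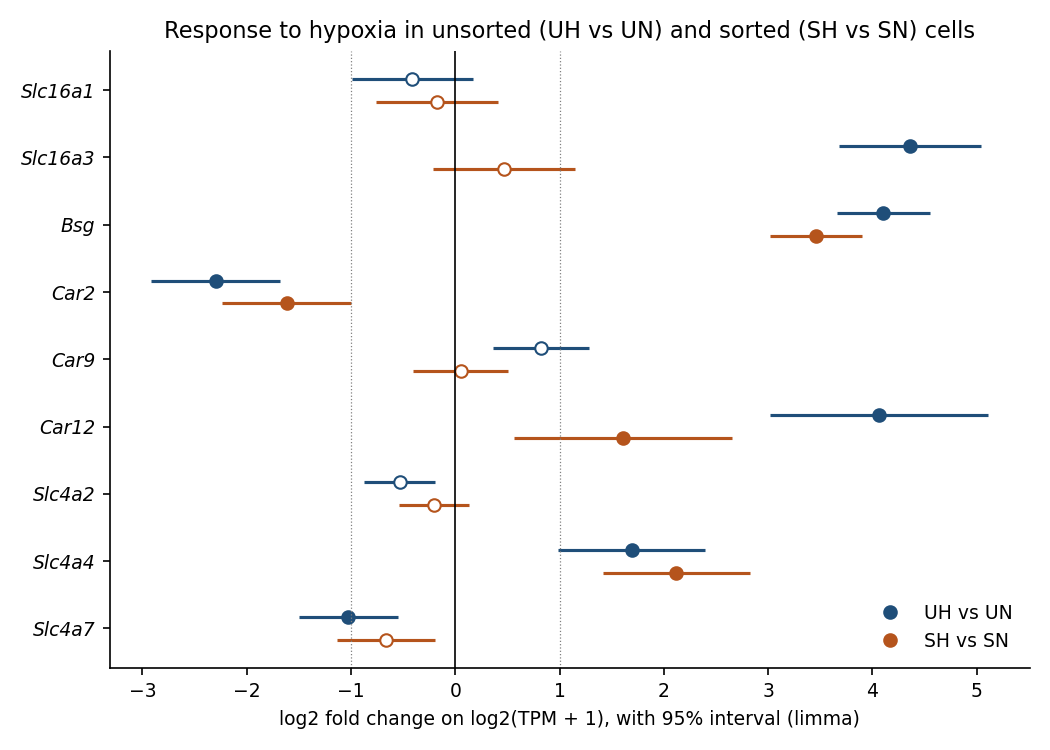
Log2 fold change of each gene on log2(TPM + 1) with its 95% interval from limma (horizontal axis), for UH vs UN (blue) and SH vs SN (orange), with filled points for called genes and dotted lines at the fold threshold. The intervals of Slc16a3 (4.36 and 0.47) and Car12 (4.06 and 1.61) did not overlap, while those of the other 7 genes did.

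Sorted and unsorted cells were then compared at equal oxygen. In SN vs UN, Slc16a3, Car12 and Slc16a1 were lower, 3 of the 9 where 7.57% of all genes were called lower, and 0 were higher where 3.2% of all genes were. Of the 9, 4 had an unadjusted p under 0.05 in this limma comparison, the other one being Slc4a2, also lower. In SH vs UH, Slc16a3, Car12 and Car9 were lower, 3 of the 9 against 5.35% of all genes, and Car2 was higher, 1 of the 9 against 7.65%. In the comparison of the responses, 0 of the 9 were called higher, where 8.08% of all genes were. Slc16a3 and Car12 were called lower, where 2.18% were. By limma 4 of the 9 had an unadjusted p under 0.05, each with a lower value. Bsg (−0.65, adjusted p = 0.130, limma) and Car9 (−0.77, adjusted p = 0.0835, limma) were among these but were not called. Such counts at an unadjusted p have no share over all genes beside them and give no result about the 9. Without UN replicate 1, Car2 was called higher and Car9 was also called lower in that comparison. These comparisons share libraries with those of hypoxia and are not independent of them.

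Collagen transcripts were low in sorted cells as well, whereas other fibroblast markers followed several orders. The 9 markers summed to 4547, 6807 and 5983 TPM in UH, but to 169, 166 and 187 TPM in SN and 70.4, 76.5 and 47.1 TPM in SH. Col1a1, with the highest mean, was 428 to 1186 TPM in UN, 2478 to 3556 TPM in UH, 5.65 to 7.62 TPM in SN and 15.5 to 26.3 TPM in SH. Of 7 tested, 4 were lower and 0 higher in sorted cells in normoxia, where 7.57% and 3.2% of all genes were, and 5 were lower and 1 higher in hypoxia, where 5.35% and 7.65% were. The collagens and Pdgfra were the 4 that were lower in normoxia. Dcn (decorin) was 349, 86.2 and 81.3 TPM in UN, 49.9, 50.4 and 61.0 TPM in UH, 116, 116 and 126 TPM in SN and 26.0, 32.5 and 17.6 TPM in SH. Pdgfrb was 28.4 to 74.6 TPM in UN, 12.02 to 17.3 TPM in UH, 40.3 to 47.7 TPM in SN and 5.98 to 6.19 TPM in SH. In SN vs UN the difference was −0.18 for Dcn, 0.11 for Pdgfrb and 0.49 for Des (desmin), none of which passed the test, and Des was the marker that was higher in SH vs UH. In UH vs UN 3 of the 7 were called higher (5.46% of all genes), the collagens, and 3 lower (11.8% of all genes), Pdgfra, Pdgfrb and Dcn. Several of these values rested on UN replicate 1. With it left out, Pdgfrb (−0.94) and Dcn (−0.64) were not called in UH vs UN, while Col3a1 went from 2.01 to 3.12 and Col1a2 from 1.92 to 2.68. In SN vs UN, Dcn then changed sign to 0.50, and Pdgfrb (0.54, adjusted p = 0.0153, limma) and Des (0.65, adjusted p = 0.0494, limma) passed for p but not for fold. Lrat, a defining gene of stellate cells, was at 0 in every library, and Lum did not exceed 0.135 TPM. Slc16a3 and Car12 had their lowest means in the sorted groups, where the collagens and Pdgfra were low too. At equal oxygen, Dcn and Pdgfrb overlapped between SN and UN and were lower in SH than in UH without overlap. Car9 was 0.961, 0 and 0 TPM in the UN libraries and 0 in every SN library, so only UN replicate 1 set these groups apart. Similar sums had different make-ups among unsorted libraries. UN replicate 1 and UH replicate 1, which were not treated as a pair, summed to 4315 and 4547 TPM. In these libraries Col3a1 was 1960 and 1273 TPM, Col1a1 1186 and 2478 TPM and Dcn 349 and 49.9 TPM. The part of fibroblast or stellate cells in the difference between sorted and unsorted cells was not tested. In bulk RNA, fewer cells of a type and less RNA per cell cannot be told apart.

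Among markers of other cells, biliary markers (7 genes) summed to 1017 to 4876 TPM. In the UN, SN and SH libraries most of this was Spp1 (osteopontin), which fell in both responses as Car2 did. In the UH libraries Spp1 was 645, 588 and 688 TPM, and Krt19, a keratin of bile ducts, supplied most of the rest. Krt19 followed the order of Slc16a3 and Car12 more closely, at 29.4, 83.4 and 73.2 TPM in UN and 513, 506 and 424 TPM in UH. It was 0.714, 0.438 and 1.36 TPM in SN and 4.003, 4.53 and 6.07 TPM in SH. Its log2 fold change was 3.06 in UH vs UN, 1.69 in SH vs SN, −5.00 between SN and UN and −6.37 between SH and UH, all called by limma. The responses differed by −1.37 (adjusted p = 0.0533, limma) and, without UN replicate 1, by −0.91 (adjusted p = 0.0323, limma), under the fold threshold. With median-of-ratios scaling 1 instead of 0 biliary markers was called lower in that comparison. Of 6 biliary markers tested, 1 was higher and 1 lower in UH vs UN, beside 5.46% and 11.8% of all genes, and Epcam did not exceed 0.310 TPM. Endothelial markers (9 genes) summed to 2.44 to 4.15 TPM in UN, 18.3 to 28.5 TPM in UH, 3.54 to 4.58 TPM in SN and 8.14 to 9.47 TPM in SH. Flt1, a VEGF receptor, made up most of this in UH. Tek made up most of it in SN, at 2.69, 2.70 and 2.07 TPM, and was 3.29, 2.997 and 2.83 TPM in SH against at most 0.226 TPM in unsorted libraries. Tek encodes Tie2, whose promoter drove the EGFP used for sorting, so its level is no independent result. Vwf (von Willebrand factor) was at most 0.447 TPM in other groups and 1.31, 0.907 and 1.56 TPM in SH, and Pecam1 and Cdh5 did not exceed 0.484 and 0.0967 TPM. Macrophage or leukocyte markers (7 genes) summed to 5.14 to 9.76 TPM in UN, 21.4 to 22.5 TPM in UH, 9.73 to 14.6 TPM in SN and 58.8 to 63.3 TPM in SH. Most of the SH sum was Cd68, a lysosomal protein of macrophages, which rose in both responses, by 1.83 and 2.66 on the log2 scale, and was higher in sorted cells by 1.10 in normoxia and 1.93 in hypoxia. Csf1r, a macrophage growth factor receptor, rose by 1.17 in unsorted cells, and Ptprc, which marks leukocytes, did not exceed 0.121 TPM. Erythroid markers (7 genes), which matter here because red cells are rich in carbonic anhydrases, summed to 0.946 to 21.9 TPM. The SH sums (21.9, 17.9 and 8.86 TPM) were mostly Hba-a1 and overlapped those of SN (1.34, 12.05 and 7.89 TPM), and the reads of the near-identical globin genes may be split between them. Their part in the results was not tested.

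Other genes of the same functions were taken from lists made by function. Their counts stand beside the shares of all genes given above, 5.46% risen and 11.8% fallen in unsorted cells, 7.47% risen and 5% fallen in sorted cells, and 1 or 2 calls in so short a list give no result about the list. Of 13 other carbonic anhydrases, 9 were tested, of which 2 rose and 2 fell in UH vs UN and 2 rose and 1 fell in SH vs SN. Car6, a secreted form, rose by 1.52 and 1.82 on the log2 scale in unsorted and sorted cells, and Car11, a related protein without catalytic activity, by 1.09 and 1.11. Car13, a cytosolic form and the most abundant of these, fell by 1.93 and 1.11. It was 46.7, 81.5 and 77.9 TPM in UN and 15.3, 16.2 and 19.1 TPM in UH, and 26.8, 24.9 and 31.2 TPM in SN and 11.4, 12.3 and 12.9 TPM in SH. The difference of its responses was not called with all 12 libraries. It was called without UN replicate 1 (1.07, adjusted p = 0.00112, limma), in a fit chosen after seeing the data. Car13 thus went down as Car2 did, without overlap of the groups. The cytosolic forms did not all do so. Car7, also cytosolic, was 0.508, 1.39 and 1.04 TPM in UN and 0.988, 0.557 and 0.682 TPM in UH. It was 0.963, 0.744 and 0.835 TPM in SN and 2.69, 2.20 and 1.90 TPM in SH. The SH libraries were the highest, with a difference of 0.82 from SN (adjusted p = 0.00328, limma), under the fold threshold, and the responses differed by 0.98 (adjusted p = 0.0175, limma) or, without UN replicate 1, by 1.17 (adjusted p = 0.00200, limma), where it was called. Car3, also cytosolic, fell by 2.26 in unsorted cells and was at most 0.0545 TPM in every sorted library.

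Of 11 other bicarbonate transporters 8 were tested, of which 0 were called in UH vs UN and 1 rose in SH vs SN. At an unadjusted p under 0.05 by limma, 2 were lower in UH vs UN (Slc26a4 and Slc26a6, both under the fold threshold). The riser was Slc4a11, a family member known from the corneal endothelium. It was listed by its family, so its rise is not read as one of bicarbonate transport. Slc4a11 was 0.623, 0.802 and 1.29 TPM in UN and 0.974, 1.26 and 1.02 TPM in UH. It was 0.278, 0.376 and 0.194 TPM in SN and 14.5, 12.3 and 8.38 TPM in SH. Only the SH libraries stood out, and the log2 fold change was 3.28 (SE 0.195, adjusted p = 4.36e-07, limma). The responses of sorted and unsorted cells differed by 3.14 (SE 0.276, adjusted p = 4.16e-05, limma), in the opposite direction to Slc16a3. Slc4a3, an anion exchanger and the most abundant of the list, had a mean of 19.5 TPM over the 12 libraries and was called in neither response.

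Of 13 sodium-proton exchangers and their scaffolds 9 were tested, 1 of which fell in UH vs UN while 0 were called in SH vs SN, where 5 had an unadjusted p under 0.05 by limma. Slc9a3r1, a scaffold of the exchangers (NHERF1), was 75.1, 52.7 and 47.0 TPM in UN and 20.2, 18.6 and 19.2 TPM in UH, a log2 fold change of −1.51. In sorted cells the difference was −0.96 (adjusted p = 0.000304, limma), just under the fold threshold. Without UN replicate 1, 3 of the list were called lower in UH vs UN. The list's most abundant gene was Chp1, with a mean of 81.6 TPM.

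Of 16 other monocarboxylate transporters and chaperones 13 were tested, of which 0 rose and 2 fell in each response. Emb (embigin), the alternative chaperone to basigin, was 24.8, 58.6 and 62.3 TPM in UN and 7.84, 7.69 and 8.85 TPM in UH. It was 1.22, 1.198 and 1.55 TPM in SN and 0.881, 0.769 and 0.595 TPM in SH. Embigin thus fell in unsorted cells, by 2.34 (SE 0.278, adjusted p = 3.58e-05, limma), where basigin rose, and was low in all sorted libraries. Nptn (neuroplastin), another relative of these chaperones and the most abundant of the list, had a mean of 312 TPM and was called in neither. Slc16a10, which carries aromatic amino acids, fell by 1.15 and 1.42, and Slc16a12 fell by 1.03 in sorted cells. With median-of-ratios scaling 1 of the list was called lower in UH vs UN. Of 27 subunits of proton pumps 21 were tested, 0 rose and 2 fell in each response, where 11.8% and 5% of all genes fell. These were Atp6v0a1 (log2 fold changes of −1.45 and −1.46) and Atp6v0a4 (−1.31 and −1.26), both membrane subunits of the vacuolar proton pump. Atp6v0c, its most abundant gene here, had a mean of 726 TPM.

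Of 15 genes that supply lactate or govern the fate of pyruvate 13 were tested, of which 6 rose in unsorted and 5 in sorted cells, and 0 fell in either. Ldha, the lactate-forming dehydrogenase subunit, was 915, 876 and 976 TPM in UN and 3362, 3061 and 3088 TPM in UH. It was 807, 762 and 772 TPM in SN and 2185, 2245 and 2438 TPM in SH. Ldha thus rose in both kinds of cells, by 1.78 and 1.55 on the log2 scale, and the responses did not differ by the test (−0.23, adjusted p = 0.213, limma). Pdk1, which restrains pyruvate oxidation, rose by 2.33 and 2.66. Pkm (pyruvate kinase), the most abundant, rose by 1.48 and 1.07. Slc2a1 (GLUT1), the glucose importer, rose by 4.24 and 2.64, and these responses differed by −1.60 (adjusted p = 0.000715, limma). Ldha rose in sorted cells, in which Slc16a3 was at most 1.07 TPM and Slc16a1 at most 25.7 TPM. Ldhb, also on this list, did not. It was 26.9, 19.9 and 17.1 TPM in UN, 0.623, 0.256 and 0.613 TPM in SN and 0.107, 0.223 and 0.182 TPM in SH. Of 9 receptors for protons or lactate 4 were tested, with 0 called in UH vs UN, where 1 had an unadjusted p under 0.05 by limma, and 1 higher in SH vs SN. The former was Asic1, at −0.83, which was called (−1.25, adjusted p = 6.31e-05, limma) without UN replicate 1. The latter was Asic3, an acid-sensing channel, at 0.174, 0.180 and 0.220 TPM in SN and 2.11, 2.21 and 0.858 TPM in SH. Asic1, its most abundant relative, had a mean of 6.61 TPM.

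**Figure D4:**
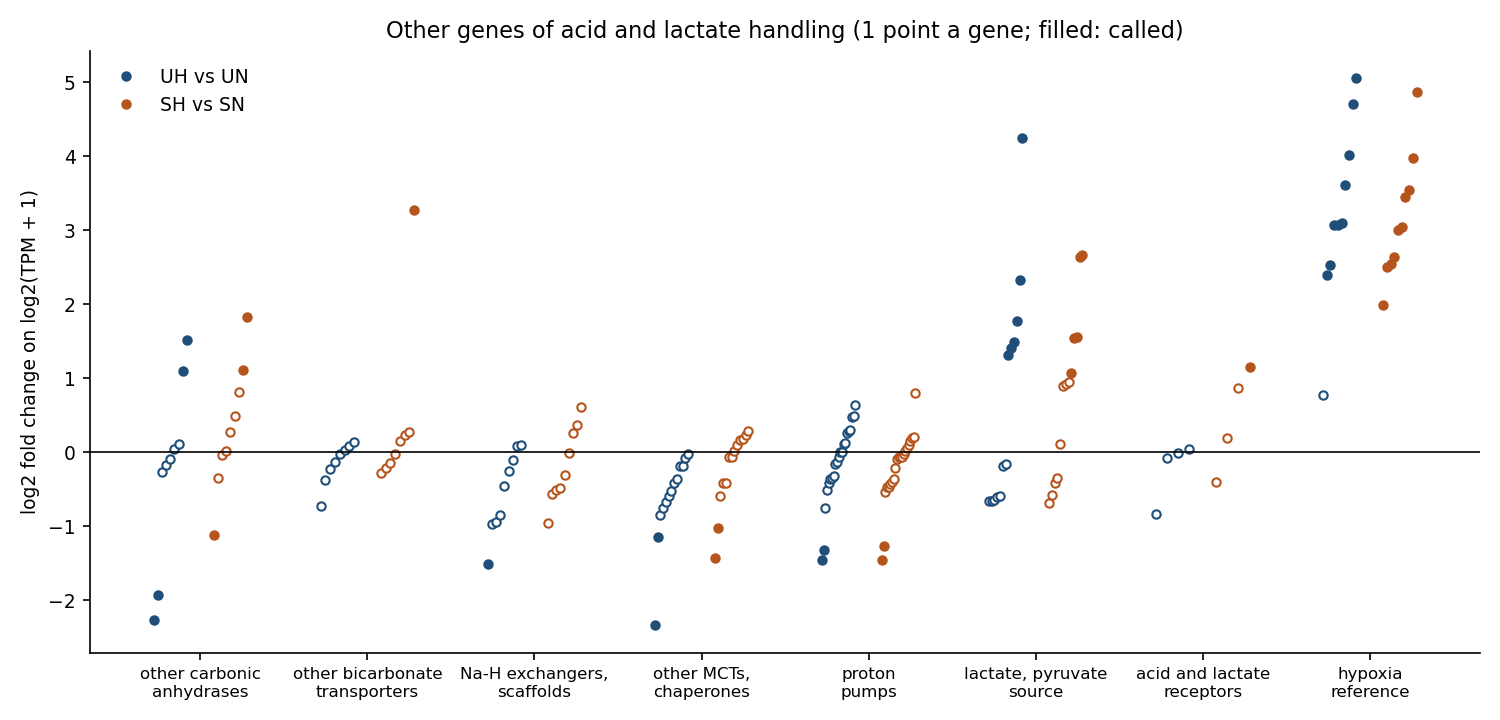
Log2 fold change on log2(TPM + 1) of each tested gene of 8 lists (horizontal axis) in UH vs UN (blue) and SH vs SN (orange), with 1 point for each gene, sorted by value, and filled points for called genes. Hypoxia reference genes and genes of lactate and pyruvate supply had the most called points, 9 and 6 in UH vs UN, while the bicarbonate transporters and proton pumps lay mostly near 0.

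The same lists were compared between sorted and unsorted cells. In SN vs UN, where 3.2% of all genes were called higher and 7.57% lower, 1 of 9 other carbonic anhydrases was higher and 2 lower, and 1 of 13 other monocarboxylate transporters and chaperones was higher and 4 lower. Of 13 genes of lactate and pyruvate supply 3 were lower, and of 4 receptors 1. In SH vs UH, where 7.65% of all genes were called higher and 5.35% lower, 1 of 9 other carbonic anhydrases, 1 of 8 other bicarbonate transporters, 2 of 9 sodium-proton exchangers or scaffolds and 1 of 21 proton pump subunits were higher and 0 of these were lower. In the same comparison 1 of 13 other monocarboxylate transporters and chaperones was higher and 2 were lower, and of the 13 genes of lactate and pyruvate supply 1 was higher and 1 lower. Single calls in lists this short give no result about the list. With median-of-ratios scaling 0 other carbonic anhydrases and 0 sodium-proton exchangers were higher in SH vs UH, and 3 instead of 1 of the genes of lactate and pyruvate supply were lower.

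Finally, the genes whose pattern was most like that of each gene were sought among 13567 genes with a mean of at least 1 TPM, by Pearson's r of log2(TPM + 1) over the 12 libraries. These correlations are descriptions over libraries that fall into 4 groups. Bsg was most like Vwa1 (r = 0.997), Gipr and Jmjd6, and Slc16a3 was most like Pygl (r = 0.996), Adm2 and Dok5. Pygl encodes liver glycogen phosphorylase. Car12 was most like H2-D1 (r = 0.988) and Arhgef4, Car9 like Ctla2a (r = 0.994), Csrp1 and Plac8, and Car2 like Gsta3 (r = 0.992), H1f0 and Igf2bp3. Slc4a4 was most like Slc41a1 (r = 0.990), Piga and Ogt, Slc4a7 like Smc5 (r = 0.989), Pwwp2a and Fam84b, and Slc4a2 like Snx18 (r = 0.983) and Lama1. Slc16a1 was most like Erp44 (r = 0.982), AI314180 and Kank4. Among the 9 themselves, Slc16a3 went with Car9 (r = 0.943) and Car12 (r = 0.914), Bsg went with Slc4a4 (r = 0.900) and against Car2 (r = −0.924), and Car2 went with Slc4a7 (r = 0.915). Slc16a1 was less like the other genes of lactate export, with r = 0.399 to Slc16a3 and −0.166 to Bsg.

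The 9 genes lie on the plus strand of GRCm38 (GENCODE M21). Slc16a1 (ENSMUSG00000032902) is at chr3:104638668-104658462, Slc16a3 (ENSMUSG00000025161) at chr11:120948480-120960868 and Bsg (ENSMUSG00000023175) at chr10:79704491-79711969. Car2 (ENSMUSG00000027562) is at chr3:14886273-14900770, Car9 (ENSMUSG00000028463) at chr4:43506966-43513729 and Car12 (ENSMUSG00000032373) at chr9:66713686-66766845. Slc4a2 (ENSMUSG00000028962) is at chr5:24423837-24440950, Slc4a4 (ENSMUSG00000060961) at chr5:88886818-89239653 and Slc4a7 (ENSMUSG00000021733) at chr14:14702279-14799940. All are protein-coding, and each TPM value is for the whole gene, so isoforms were not told apart.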

How the data were processed

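RNA of BN1-Tie2-EGFP cells was measured in 12 libraries, 3 for each of 4 groups taken from the sorted or unsorted and oxygen labels, from a stranded mRNA kit and paired-end sequencing. The authors processed the reads with nf-core/rnaseq 3.12.0 against mm10, per the submitters' processing notes, and deposited 1 TPM value per gene and library. The annotation and any use of strand are not given in the sources used here. TPM sum to 1000000 in each library, so depth is unknown, and no counting interval or floor is given. Counts were not used here, so the count test of the study's methods was replaced by limma on log2(TPM + 1).

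Genes with a mean of at least 0.1 TPM were fitted with limma 3.58.1 (R 4.3.3, empirical Bayes with a trend) with a mean for each group and no covariates. In all, 5 contrasts were tested, UH vs UN, SH vs SN, SN vs UN, SH vs UH and (SH − SN) − (UH − UN). Other steps used Python 3.11.15, pandas 2.3.3, numpy 2.4.6, scipy 1.17.1 and matplotlib 3.10.9. The fit was tested on simulated data. GENCODE M21 held 98.8% of the identifiers in the table.

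All 9 genes are named. From each other list, the text names the gene with the highest mean TPM, up to 3 called genes in each direction of each response whose groups do not overlap, and genes with a called difference of responses. Not all are printed for the marker lists, and a few genes are not reported here. The 9 genes, lists and markers were chosen with earlier results of these data known. Alternatives were another pseudocount, 2 filters, 3 scalings, a replicate block, only the groups compared, moderation without a trend, and leaving out each library.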

Additional observations from a re-analysis of the deposited data

Results flagged for a closer look

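The response to hypoxia differed between sorted and unsorted cells for 9 of 96 tested genes, those of these functions and the hypoxia reference genes together. By the limma interaction test 6 were higher and 3 lower, where 8.08% of all genes tested were called higher and 2.18% lower. The difference was (SH − SN) − (UH − UN) on the log2 scale, with n = 3 libraries a group. With median-of-ratios scaling 9 were called again, but 4 were higher and 5 lower. Without UN replicate 1 the count was 17, 12 higher and 5 lower, but counts over all genes moved too. Leaving out each library in turn gave 1266 to 2110 of all genes higher and 335 to 636 lower, instead of 1527 and 412. The 636 were without UN replicate 1. Among the genes of acid handling and lactate export the difference was −3.89 for Slc16a3 (95% interval −4.86 to −2.93, adjusted p = 0.000182, limma). It was −2.46 for Car12 (95% interval −3.94 to −0.98, adjusted p = 0.0242, limma). This call was lost with a pseudocount of 0.1 (−1.46, adjusted p = 0.250, limma) and in several fits without 1 library. Among the other genes of these functions the difference was 3.14 for Slc4a11 (adjusted p = 4.16e-05), 2.23 for Car3 (adjusted p = 0.00479) and 1.93 for Emb (adjusted p = 0.00573). It was −1.60 for Slc2a1 (adjusted p = 0.000715), 1.47 for Pdk2 (adjusted p = 0.0467), 1.10 for Ldhd (adjusted p = 0.0114) and 1.17 for Asic3 (adjusted p = 0.0104). The median difference over all genes was 0.25, and it was 0.024 with median-of-ratios scaling, under which 0 genes of lactate and pyruvate supply were called higher, so that Ldhd and Pdk2 lost their calls.

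Pdk2, a kinase that restrains pyruvate oxidation, was 11.9, 25.1 and 26.0 TPM in UN and 10.8, 12.8 and 15.6 TPM in UH. It was 5.31, 9.08 and 13.0 TPM in SN and 22.2, 17.4 and 12.3 TPM in SH. These groups overlapped in both responses. Ldhd, which uses D-lactate, was 1.78, 1.51 and 2.25 TPM in UN and 1.26, 1.58 and 1.66 TPM in UH. It was 4.49, 4.04 and 4.47 TPM in SN and 9.95, 11.1 and 6.72 TPM in SH, where the sorted groups did not overlap. Car3 and Emb fell in unsorted cells and were low in all sorted libraries.

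Of 35 tested markers of cell types, 6 were also called, 4 higher and 2 lower, beside 8.08% and 2.18% of all genes. Without UN replicate 1 the number was 11, 5 higher and 6 lower, among them all 7 tested fibroblast or stellate markers (2 higher and 5 lower). In that fit 636 instead of 412 of all genes were lower. With all 12 libraries the difference was 1.79 for Hnf4a, 1.08 for Vwf and −1.72 for Flt1 (both endothelial). It was −1.29 for Pdgfrb and 1.76 for Des (both fibroblast or stellate) and 2.22 for Hba-a1 (erythroid). With median-of-ratios scaling 0 endothelial markers were called higher, so that Vwf lost its call.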

How the results depend on the processing

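Over the 9 genes and 5 comparisons, 890 of the alternative values kept their direction and their side of the threshold, 17 fell below it, 11 passed it and 8 changed sign. With a pseudocount of 0.1 the number of the 9 genes called lower in the comparison of the responses was 1 instead of 2. With median-of-ratios scaling and with quantile normalization, 1 instead of 2 was called lower in UH vs UN and 0 instead of 1 higher in SH vs UH. Leaving out each library in turn gave 4 to 5 called higher and 1 to 2 called lower in UH vs UN, 2 to 3 and 1 in SH vs SN, and 0 and 2 to 3 in SN vs UN. It gave 1 and 3 to 4 in SH vs UH and 0 to 1 and 1 to 3 in the comparison of the responses.

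None of the differences that changed sign passed the test, by limma, under either setting. Bsg in SN vs UN (−0.00038) was 0.12 with median-of-ratios scaling, 0.059 with quantile normalization, and −0.11 to 0.18 without 1 library. In the comparison of the responses, median-of-ratios scaling gave −0.012 for Slc4a2 and −0.0996 for Slc16a1, and quantile normalization gave −0.020 for Slc4a7. Slc16a1 in SH vs UH passed the fold threshold with a pseudocount of 0.1 (−1.03), median-of-ratios scaling (−1.22) and quantile normalization (−1.15). The cause was not tested. The fits of the other lists without UN replicate 1 and with median-of-ratios scaling were chosen after seeing the data. Beside the changes given with the lists, leaving out UN replicate 1 added calls for Slc16a9 (1.07) and Atp6v0e2 (1.11) in the comparison of the responses, for Atp6v1g1 (−1.02), Slc16a7 (−1.01) and Pdk4 (1.09) in SN vs UN, for Slc9a9 (−1.16), Chp1 (−1.06) and Trf (1.10) in UH vs UN and for Dcn (−1.09) in SH vs UH. Median-of-ratios scaling gave 10 instead of 9 hypoxia reference genes called higher in UH vs UN, 2 instead of 0 proton pump subunits lower in the comparison of the responses and 1 instead of 0 in SH vs UH. In SN vs UN it gave 2 instead of 3 genes of lactate and pyruvate supply and 0 instead of 1 receptor lower.

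Counts over all genes moved more. With a pseudocount of 0.1, 1580 instead of 1032 were called higher in UH vs UN, 2854 instead of 1412 higher in SH vs SN, 990 instead of 606 higher and 2402 instead of 1431 lower in SN vs UN, and 2810 instead of 1447 higher and 1550 instead of 1012 lower in SH vs UH. Median-of-ratios scaling gave 1564 higher and 1217 instead of 2222 lower in UH vs UN, and 901 instead of 1527 higher and 782 instead of 412 lower in the comparison of the responses. Quantile normalization gave 1343 lower in UH vs UN. It gave 772 higher and 745 lower in the comparison of the responses, where leaving out UN replicate 1 gave 636 lower.

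Same-numbered libraries did not deviate together (correlations of −0.063 to 0.14), so the numbers were not treated as pairs. With the replicate number as a block, 4 of the 9 genes were called higher and 2 lower in UH vs UN, and no call on the 9 genes changed in any comparison. At a mean TPM of at least 1, Car9 was not tested, and Bsg, as one of the 20 highest genes, has no value when those are left out. The unknown depth limits most the genes under 1 TPM, Car9 in all groups but UH, Slc16a3 in SN and SH and Car12 in SN cells.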
